A study of Homo sapiens with 8 samples.

Results

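LRP2 and 7 related receptors of the low-density lipoprotein (LDL) receptor family were followed across the drug treatments of a uveal melanoma cell line. The genes were LRP1, LRP2, LRP4, LRP5, LRP6, LRP8, VLDLR and SORL1, taken by gene symbol, and all 8 were present among the 18406 genes of the deposited table and among the 13320 with a mean value of at least 10. LRP2 was chosen by its measured values, which were higher with panobinostat and in the combination than in vehicle, so those rises, and its other contrasts, which use the same libraries, are given as a description with no test. The other 7 members were taken by family.

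The cells were 92.1, an established human uveal melanoma line, and RNA was sequenced from 2 libraries in each of 4 groups. All groups were treated for 24 h: vehicle (DMSO), 10 nM trametinib, 10 nM panobinostat, or trametinib with panobinostat, for which the label gives 10 nM once and each drug is assumed to have been at that dose. Trametinib inhibits the kinases MEK1 and MEK2 upstream of ERK, and panobinostat inhibits histone deacetylases; the label of the panobinostat libraries also carries the tag MEKi, and the drug name was followed. All 8 libraries came from 1 cell line, and no source says that the replicates came from separate cultures: the spread behind each p-value is that of the libraries and may be technical.

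Recovered totals were 6897784 to 16861001 reads per library. Trametinib replicate 2 had 5362 genes at 0 and replicate 1 had 3743, against 2222 to 2890 in the vehicle, panobinostat and combination libraries. Genes at 1 to 5 reads were 2.10% and 6.74% of detected genes in trametinib replicates 2 and 1, against 9.93% to 13.3% elsewhere. Low counts were scarcer in both, most in replicate 2, and results that turn on replicate 2 are given without it. Leaving it out does not remove this limit from low trametinib values. Build hs37d5 is named for the 4 vehicle and trametinib libraries and no build for the other 4, so in panobinostat or combination against vehicle, and in combination against trametinib, drug and any difference in handling between these sets cannot be told apart. Trametinib against vehicle and combination against panobinostat each lie within a set. The interaction compares the latter difference with the former, so panobinostat and set cannot be told apart in it. Of 9 melanocyte markers, 7 or 8 had a mean of at least 10 in each group. Their summed values were 104884 to 112842 in vehicle and 169574 to 177729 with trametinib. They were 102472 to 106315 with panobinostat and 140701 to 142112 in the combination, and PMEL and TYRP1 made up most of each sum. Of 6 proximal tubule markers other than LRP2 in the table, 1 (CUBN) reached a mean of 10, and SLC5A2 and HNF4A were at 0 in both trametinib and both panobinostat libraries. The summed values of those 6 were 71.6 to 79.2 in vehicle, 188 to 316 with trametinib, 97.9 to 116 with panobinostat and 183 to 219 in the combination. Markers of retinal pigment epithelium, another tissue known for LRP2, summed to 194 to 201 in vehicle, 792 to 794 with trametinib, 309 to 365 with panobinostat and 706 to 775 in the combination, and BEST1 made up most of each sum (776 and 794 with trametinib). LRAT, RLBP1 and RDH5 of that list were lower with trametinib than in vehicle. LRAT went from 18.1 and 13.5 to 6.02 and 0. RLBP1 (10.2 and 3.17 in vehicle) and RDH5 (2.41 and 1.58) were at 0 with trametinib, where low counts were scarcer. LRAT was above vehicle wherever panobinostat was given: the single-drug libraries held 60.1 and 109, those of both drugs 66.7 and 68.5. RLBP1 and RDH5 were at 6.05 or below in those libraries. RPE65 was at 0 in the vehicle, trametinib and panobinostat libraries. The part of these marker genes in the results was not tested. In such bulk RNA, fewer cells of a type and less RNA per cell cannot be told apart.

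Receptors of the LDL receptor family are membrane proteins that bind ligands through cysteine-rich repeats. Some act mainly in endocytosis: LRP2 (megalin), best known from the kidney proximal tubule, and LRP1 each take up many proteins. Others signal: LRP5 and LRP6 are Wnt coreceptors, LRP8 (ApoER2) and VLDLR are receptors for reelin, and LRP4 is the agrin receptor that acts with the kinase MuSK. SORL1 (SorLA) combines LDL receptor repeats with a VPS10 domain and sorts cargo such as the amyloid precursor protein between endosomes and the Golgi.

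The 250 bases before the RefSeq start of 3 members are shown because these genes represent different responses below: LRP2 and SORL1 have the largest changes with panobinostat, and LRP8 has the largest fall with trametinib. Of the 8 members, 6 were found in the RefSeq promoter table (build GRCh38.p14). Sequences run 5′ to 3′ along the gene, and capitals mark GC boxes, the motif of Sp1-type factors (GGGCGG, or CCGCCC on the other strand). They lie at chr2:169362535-169362784 (minus strand) for LRP2, chr11:121452064-121452313 (plus strand) for SORL1 and chr1:53328071-53328320 (minus strand) for LRP8.
LRP2: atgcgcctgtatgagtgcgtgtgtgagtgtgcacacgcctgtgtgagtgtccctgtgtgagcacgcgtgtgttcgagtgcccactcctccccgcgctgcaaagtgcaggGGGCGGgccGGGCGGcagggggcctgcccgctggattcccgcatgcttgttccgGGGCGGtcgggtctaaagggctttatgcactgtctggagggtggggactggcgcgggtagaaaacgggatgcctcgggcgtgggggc
SORL1: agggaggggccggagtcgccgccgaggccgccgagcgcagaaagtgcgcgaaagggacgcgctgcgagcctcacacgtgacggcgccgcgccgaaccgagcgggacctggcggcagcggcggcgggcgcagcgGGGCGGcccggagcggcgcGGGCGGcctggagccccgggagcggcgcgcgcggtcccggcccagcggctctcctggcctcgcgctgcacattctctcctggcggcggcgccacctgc
LRP8: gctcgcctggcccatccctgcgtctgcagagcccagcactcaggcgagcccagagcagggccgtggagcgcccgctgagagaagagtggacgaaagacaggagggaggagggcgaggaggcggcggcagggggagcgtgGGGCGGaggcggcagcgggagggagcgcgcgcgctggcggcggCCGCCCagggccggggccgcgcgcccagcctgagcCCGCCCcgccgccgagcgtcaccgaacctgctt

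The LRP2 window held 3 GC boxes, as did that of LRP8, and the SORL1 window held 2. Of the 35114 windows of this length in the table, 42.6% held at least 1. The LRP2 window had 66.8% G and C and 21 CpG dinucleotides, more CpG than 69.8% of windows, while SORL1 had 80.4% and 45 and LRP8 77.2% and 31. Of the other motifs searched on both strands, the ETS core (CCGGAA, in 14.5% of windows) was found once in the LRP2 window and the E-box (CACGTG, 6.35%) once in that of SORL1. No window of the 6 members held the M-box core (CATGTG, 9.42%), the AP-1 motif (TGANTCA, 6.57%), the TEAD motif (GGAATG, 11.9%) or the sterol element (TCACNCCAC, 0.883%). For LRP1, LRP5 and VLDLR the first 30 bases after the start used were in no GENCODE transcript of the gene. The windows of those genes are therefore less certain. The ETS core match in the LRP2 window shares 1 base with a GC box. A match is a description of letters only.

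LRP2 differed more between vehicle and the combination than any other member. Its normalised read counts were 10.8 and 17.4 in vehicle (18 and 22 reads), 26.1 and 65.3 with trametinib (26 and 65 reads), 548 and 473 with panobinostat (538 and 469 reads), and 1960 and 1657 in the combination (1674 and 1089 reads). The 4 groups did not overlap, and their order was vehicle, trametinib, panobinostat, combination. With 2 libraries a group, libraries that lay apart, here and below, are a description only. The share of all genes showing this is not given. The panobinostat mean of 511 ± 53.4 (SD, n = 2) was 36.2-fold above the vehicle mean of 14.1 ± 4.66, and the combination mean of 1808 ± 214 was 128-fold above it. These rises, 5.11 ± 0.40 and 6.93 ± 0.40 in log2 (change ± SE), ranked 6 and 3 among 13320 genes and are what LRP2 was picked for. The combination was 5.41 ± 0.40 above trametinib.

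The trametinib mean of 45.7 ± 27.7 was 3.23-fold above vehicle (1.52 ± 0.40 in log2), with 2 values that differ widely: the difference was 0.88 without trametinib replicate 2 and 2.17 without replicate 1. The combination mean was 3.54-fold above panobinostat (1.82 ± 0.40), and between 1.70 and 1.94 when 1 library was left out. Both differences use libraries by which LRP2 was chosen, so no p-value is given. The interaction is what panobinostat added on top of trametinib minus what it added to vehicle. For LRP2 it was 0.30 ± 0.56, and it was -0.02 without vehicle replicate 2, -0.35 without trametinib replicate 1 and 0.95 without trametinib replicate 2.

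**Figure D1:**
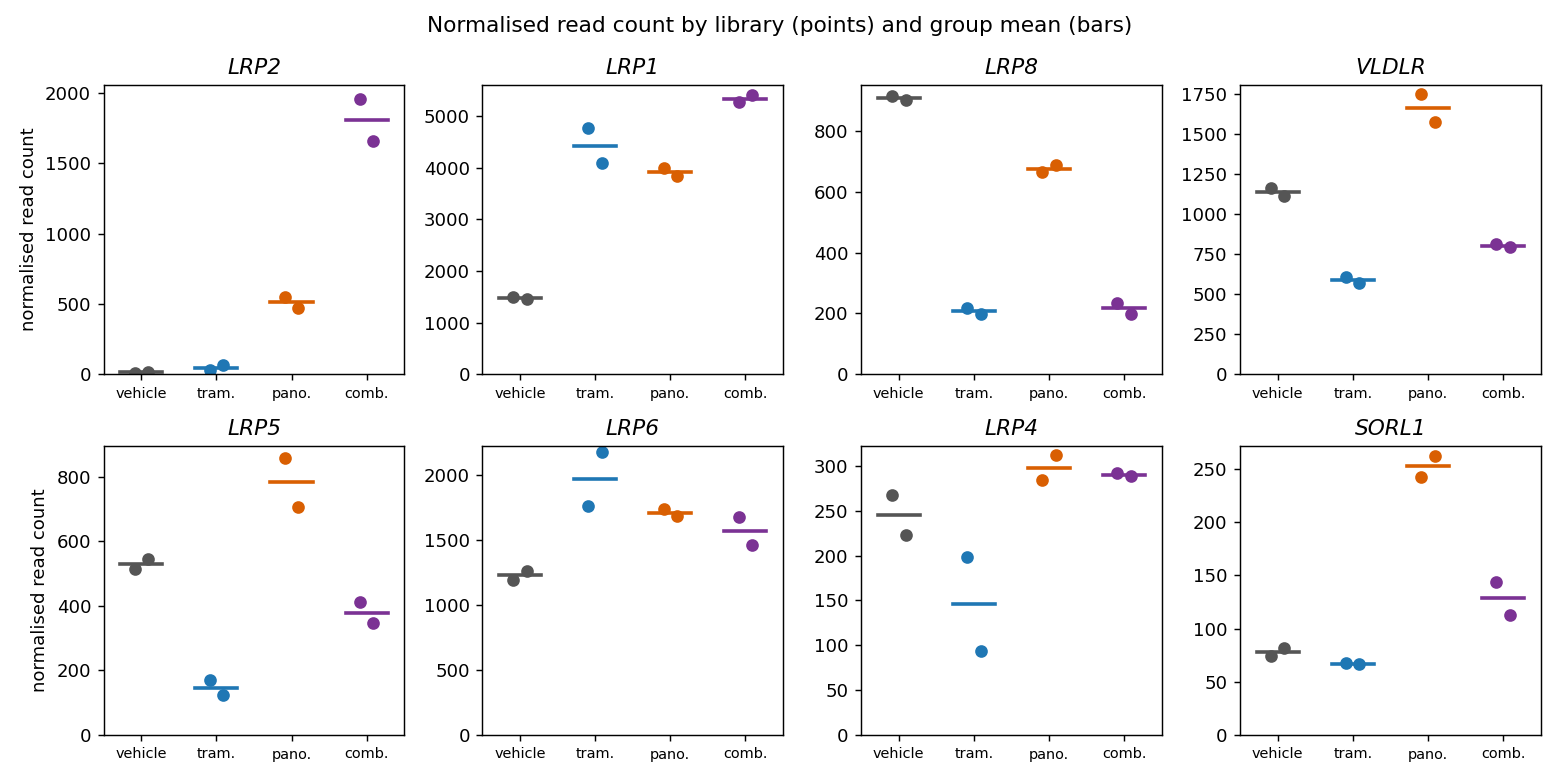
Normalised read count of each receptor (y axes, linear and starting at 0) in the 4 groups (x axes; tram., trametinib; pano., panobinostat; comb., combination), with 1 point per library and a bar at the group mean. LRP2 is at 10.8 to 65.3 without panobinostat and at 473 or above with it, and LRP8 is at 235 or below in the 4 libraries that received trametinib.

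Among the 13320 genes, the 5 nearest to LRP2 were those with the smallest Euclidean distance between their 3 log2 changes against vehicle and those of LRP2. They were DCX (distance 1.41), SLC17A7 (1.82), SYN1 (1.88), LPHN3 (2.11) and BIK (2.27). DCX, a microtubule protein of migrating neurons, was at 0.602 and 0 in vehicle, 1.00 and 0 under trametinib, 54.0 and 45.4 under panobinostat and 207 and 175 under both drugs. SLC17A7, a vesicular glutamate transporter, was at 6.02 and 1.58, 45.1 and 28.1, 169 and 201, and 281 and 301 in the same order. These genes were chosen by their likeness to LRP2, so the order of their groups is no result. SYN1, the synaptic vesicle protein synapsin I, reached 75.4 and 78.6 under panobinostat and 131 and 114 under both drugs. LPHN3, an adhesion receptor, reached 22.4 and 23.2 and then 131 and 157. BIK, a pro-apoptotic BCL2 family member, reached 11.2 and 9.07 and then 65.6 and 30.4. Of 8 neuron markers, a list that holds SYN1 and SLC17A7, 6 were in the table; they summed to 561 to 616 in vehicle, 1318 to 1409 with trametinib, 2088 to 2146 with panobinostat and 2872 to 2914 in the combination, with SNAP25 at 0 in both trametinib libraries. The list did not move together: MAP2 was at 119 and 101 in vehicle and 1387 and 1330 under panobinostat, while TUBB3 was at 391 and 371 and then 349 and 447, and GAD1 at 98.1 and 80.0 and then 104 and 82.7. Under trametinib TUBB3 was at 1162 and 1150, MAP2 at 131 and 58.3 and GAD1 at 36.1 and 81.4. In the combination TUBB3 was at 946 and 952, MAP2 at 1399 and 1375 and GAD1 at 148 and 119. The part of the neuron markers in the LRP2 pattern was not tested. Trametinib replicate 2 was at 0 for DCX, SYN1 and BIK while replicate 1 was at 1.00, 34.1 and 20.1, so their trametinib values rest on single libraries.

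**Figure D2:**
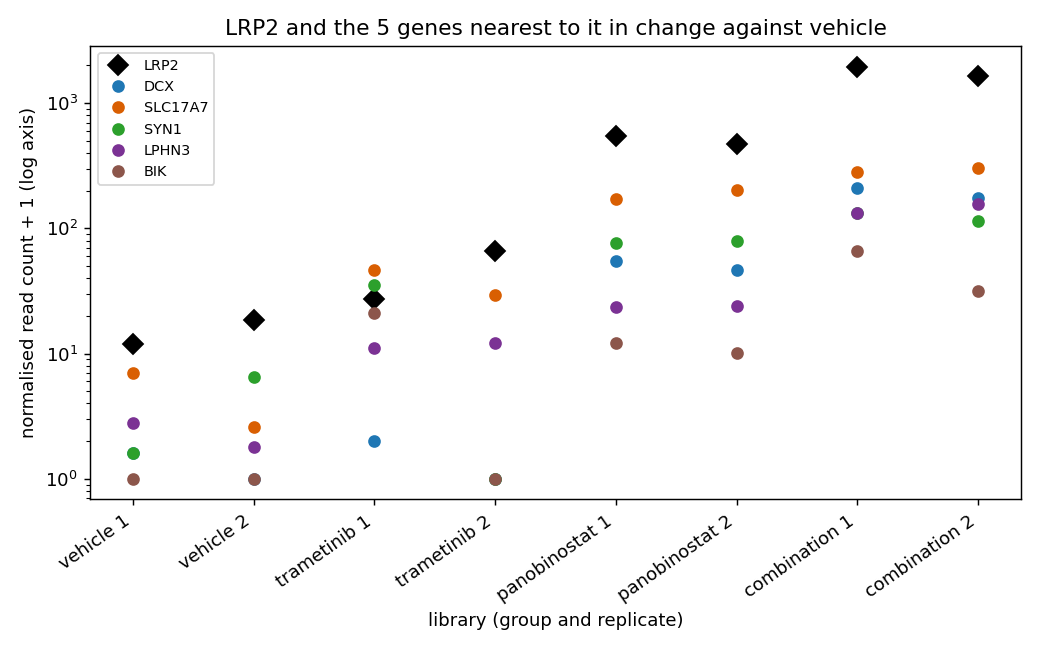
Normalised read count plus 1 (y axis, log scale) in each of the 8 libraries (x axis) for LRP2 (black diamonds) and the 5 genes nearest to it in change against vehicle (circles). Values are not per length, so each gene is read across libraries only. Before 1 is added, the DCX count is 1.00 or below in the 4 libraries without panobinostat. It is 45.4 or above in the 4 with it.

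The other members were tested with limma across all genes, with Benjamini-Hochberg adjustment and a threshold of 0.05. LRP1, the other large endocytic receptor, rose under every treatment. Its values were 1499 and 1459 in vehicle, 4773 and 4084 under trametinib, 3988 and 3835 under panobinostat and 5275 and 5410 under both drugs. All 6 treated libraries lay above both vehicle libraries, and the combination lay above either single drug. The changes against vehicle were 1.58 ± 0.077 with trametinib, 1.40 ± 0.077 under panobinostat and 1.85 ± 0.077 under both (limma adjusted p = 3.30e-07, 7.62e-06 and 1.94e-07). These 3 comparisons share the vehicle libraries. Combination over panobinostat was 0.45 ± 0.077 (limma adjusted p = 0.00253) and over trametinib 0.27 ± 0.077 (limma adjusted p = 0.0226), the latter call ending without trametinib replicate 2 (0.16) or combination replicate 1 (0.29) or 2 (0.26), and with only those groups fitted (limma adjusted p = 0.0817). The rise in the combination was smaller than the sum of the single-drug rises, with an interaction of -1.13 ± 0.11 (limma adjusted p = 1.55e-04).

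Of the 7 members other than LRP2, 2 rose and 4 fell with trametinib, with 1 not passing (median log2 change -0.84, against -0.07 over all genes tested). Of all tested genes, 51.0% were called in that comparison, 23.7% higher and 27.4% lower, and with 2 libraries a group the smallest two-sided p of an exact permutation test is 0.333. With panobinostat 5 rose and 1 fell, with 1 not passing (median 0.54, against 0.00 over all genes), where 30.5% of genes were called, 15.0% higher and 15.6% lower. In the combination 3 rose and 2 fell against vehicle, with 2 not passing (median 0.25, against 0.03), where 50% were called, 24.5% higher and 25.5% lower. All 8 members had passed the filter on low values. The panobinostat count was 3 without vehicle replicate 1 or either panobinostat replicate, and the combination count 3 without either vehicle replicate or combination replicate 1. The share of all genes called moved as well when 1 library was left out, between 34.98% and 67.2% with trametinib, between 14.8% (without vehicle replicate 2) and 51.1% (without trametinib replicate 2) with panobinostat, and between 35.3% and 67.2% in the combination.

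**Figure D3:**
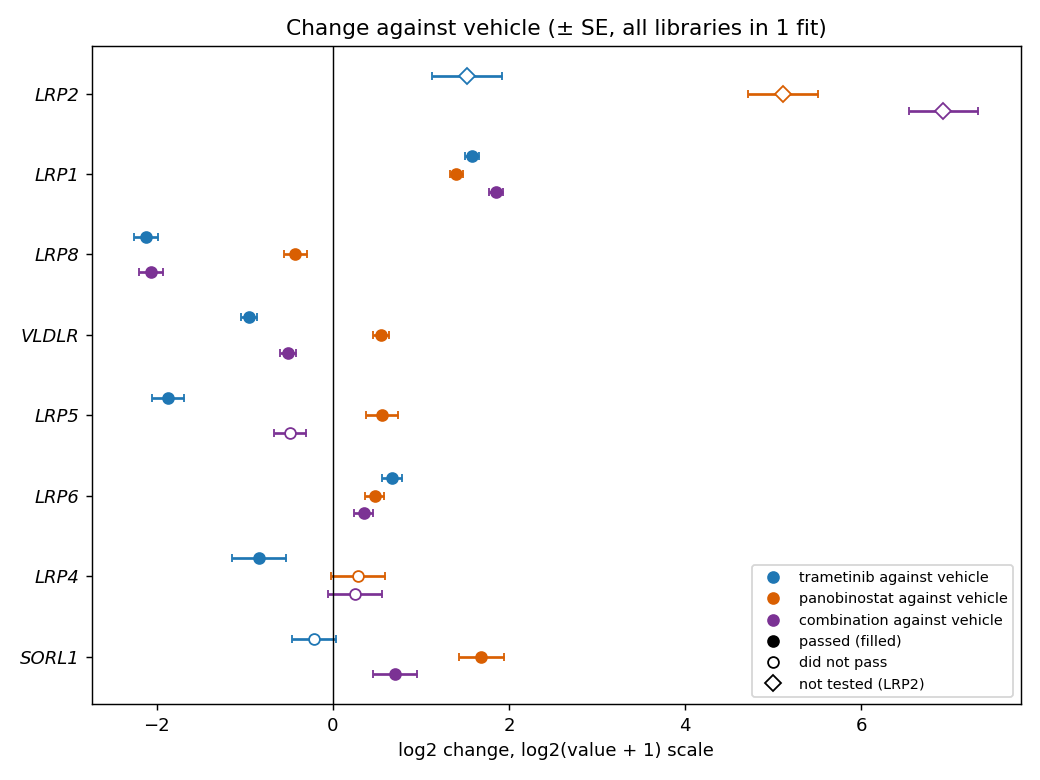
Log2 change against vehicle (x axis, log2(value + 1) scale) of each receptor (y axis) under trametinib, panobinostat and both; bars are SE from 1 fit over all libraries, filled circles passed the threshold, open circles did not, and open diamonds were not tested. LRP8 lies at -2.12, -0.43 and -2.06, and LRP1 lies between 1.40 and 1.85.

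The reelin receptors LRP8 and VLDLR both fell with trametinib and in the combination. LRP8 was at 916 and 903 in vehicle, 219 and 198 under trametinib, 666 and 688 under panobinostat and 235 and 199 under both drugs. The 4 libraries with trametinib lay apart from the 4 without it. Its change was -2.12 ± 0.13 with trametinib and -2.06 ± 0.13 in the combination (limma adjusted p = 1.65e-06 and 2.38e-06), and -1.64 ± 0.13 from panobinostat to the combination (limma adjusted p = 3.09e-05). The trametinib and combination libraries overlapped (0.06 ± 0.13, 95% interval -0.24 to 0.36, limma adjusted p = 0.768). The small fall with panobinostat (-0.43 ± 0.13, limma adjusted p = 0.0387) was lost without either vehicle or either panobinostat replicate (-0.45 to -0.40) and by quantile normalization (-0.34, limma adjusted p = 0.0902).

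VLDLR was at 1165 and 1113 in vehicle, 606 and 568 under trametinib, 1747 and 1577 under panobinostat and 814 and 791 under both drugs. By group mean, panobinostat was highest and trametinib lowest. It fell with trametinib (-0.96 ± 0.091, limma adjusted p = 2.28e-05), rose with panobinostat (0.54 ± 0.091, adjusted p = 0.00202) and was lower in the combination than in vehicle (-0.50 ± 0.091, adjusted p = 0.00132). From panobinostat to the combination it fell by 1.05 on the log2 scale (SE 0.091, limma adjusted p = 4.40e-05), close to its change from vehicle to trametinib, and it was higher in the combination than with trametinib (0.45 ± 0.091, limma adjusted p = 0.00485; 0.0552 with only those groups fitted). Its interaction was -0.09 ± 0.13 (95% interval -0.38 to 0.20, limma adjusted p = 0.657).

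The Wnt coreceptors LRP5 and LRP6 moved in opposite directions with trametinib. LRP5 was at 513 and 545 in vehicle, 168 and 123 under trametinib, 859 and 707 under panobinostat and 412 and 345 under both drugs. By group mean, panobinostat was again highest and trametinib lowest. It fell with trametinib (-1.87 ± 0.18, limma adjusted p = 2.79e-05) and was higher in the combination than with trametinib alone (1.39 ± 0.18, limma adjusted p = 4.77e-04) and lower than with panobinostat alone (-1.04 ± 0.18, limma adjusted p = 0.00296). The panobinostat rise (0.56 ± 0.18, limma adjusted p = 0.0454) was lost without any 1 of the vehicle, panobinostat or combination libraries (0.42 to 0.70) and with no filter on low values (limma adjusted p = 0.0628). Against vehicle the combination was at -0.49 ± 0.18 and did not pass (limma adjusted p = 0.0514), but it passed under 8 of 17 alternatives, among them without either trametinib replicate, with edgeR (adjusted p = 0.0383), with DESeq2 (0.0114), with only those groups fitted (0.00269), with a pseudocount of 5 and with a mean of at least 50. LRP5L, a partial copy of LRP5 that could share its reads, was at 44.5 and 45.9 in vehicle and 20.1 to 111 in the treated libraries, so LRP5 values are uncertain to that extent.

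LRP6 was at 1196 and 1266 in vehicle, 1760 and 2179 under trametinib, 1738 and 1687 under panobinostat and 1675 and 1467 under both drugs. All treated libraries lay above vehicle, while panobinostat and the combination were not separated by the test (-0.13 ± 0.11, 95% interval -0.37 to 0.12, limma adjusted p = 0.462). It rose under trametinib (0.67 ± 0.11, limma adjusted p = 7.26e-04), under panobinostat (0.48 ± 0.11, adjusted p = 0.00978) and under both (0.35 ± 0.11, adjusted p = 0.0241). The panobinostat call ended without vehicle replicate 1 (0.44) or panobinostat replicate 1 (0.45) or 2 (0.50), and the combination call without vehicle replicate 1 (0.31) or 2 (0.39) or combination replicate 1 (0.25). The combination was lower than trametinib alone (-0.32 ± 0.11, limma adjusted p = 0.0489), a call that ended without any library other than trametinib replicate 1 (-0.48 without that one, -0.17 without trametinib replicate 2), and also with a pseudocount of 0.5, no filter, quantile normalization (-0.22) or only those groups fitted (limma adjusted p = 0.0519 to 0.142). Its interaction was -0.80 ± 0.15 (limma adjusted p = 0.00666).

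LRP4, the agrin receptor, was at 268 and 222 in vehicle, 199 and 93.4 under trametinib, 284 and 312 under panobinostat and 292 and 289 under both drugs. The trametinib libraries were lowest, and the combination lay within the panobinostat range (-0.04 ± 0.30, 95% interval -0.72 to 0.65, limma adjusted p = 0.955). The fall with trametinib (-0.84 ± 0.30, limma adjusted p = 0.0438) rested on replicate 2: without it the change was -0.30 (limma adjusted p = 0.160). That call also ended without either vehicle replicate, either panobinostat replicate or either combination replicate, with edgeR (-0.73, adjusted p = 0.0612), with no filter, by quantile normalization (-0.62) and with only those groups fitted, and the change was -1.38 without trametinib replicate 1. Against vehicle, neither panobinostat (0.29 ± 0.30, limma adjusted p = 0.530) nor the combination (0.25 ± 0.30, limma adjusted p = 0.530) passed. LRP4 was higher in the combination than with trametinib (1.09 ± 0.30, limma adjusted p = 0.0228), which was 0.55 without trametinib replicate 2 and 1.63 without replicate 1 and did not pass without combination replicate 1 (1.08) or 2 (1.09) or with only those groups fitted (limma adjusted p = 0.0990).

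SORL1 was at 74.0 and 81.5 in vehicle (123 and 103 reads), 67.2 and 66.3 under trametinib, 243 and 262 under panobinostat and 144 and 113 under both drugs. After LRP2 it had the largest rise with panobinostat, 3.24-fold (1.69 ± 0.25, limma adjusted p = 0.00115), and no call with trametinib (-0.22 ± 0.25, 95% interval -0.78 to 0.35, limma adjusted p = 0.498). The combination fell between vehicle and panobinostat: 0.71 ± 0.25 against vehicle (limma adjusted p = 0.0420) and -0.98 ± 0.25 against panobinostat (limma adjusted p = 0.0201). The former call ended without vehicle replicate 1 (0.64) or 2 (0.77), panobinostat replicate 1 or 2 (0.71 in each) or combination replicate 1 (0.53), with no filter (limma adjusted p = 0.0602) and by quantile normalization (0.56), and the latter without panobinostat replicate 1 (-1.04) or 2 (-0.92) or combination replicate 2 (-0.80). It was higher in the combination than with trametinib (0.92 ± 0.25, limma adjusted p = 0.0208), a call that ended without combination replicate 1 (0.75), by quantile normalization (0.65, limma adjusted p = 0.0846) and with only those groups fitted (limma adjusted p = 0.157).

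From panobinostat to the combination, 1 of 7 members other than LRP2 rose (LRP1), 4 fell (LRP5, LRP8, VLDLR and SORL1) and 2 did not pass (median -0.98, against 0.01 over all genes), where 24.0% of genes were called, 10.9% higher and 13.1% lower. From trametinib to the combination, 5 rose, 1 fell and 1 did not pass (median 0.45, against 0.06), where 32.8% were called, 17.6% higher and 15.2% lower. That count was 2 without combination replicate 1 and 3 without combination replicate 2, when 2510 and 2490 of the 13320 genes were called. In the interaction 0 were higher, 2 (LRP1 and LRP6) were lower and 5 did not pass (median -0.09, against 0.08), where 19.3% were called, 10.2% higher and 9.04% lower, and 5 members passed without trametinib replicate 1, where 46.7% of all genes were called. The 5 that did not pass were LRP4 (0.80 ± 0.43), LRP5 (0.83 ± 0.26), LRP8 (0.48 ± 0.19), VLDLR (-0.09 ± 0.13) and SORL1 (-0.76 ± 0.36). Of these, LRP5 lay near the threshold (limma adjusted p = 0.0535). It passed with a pseudocount of 5, a mean of at least 50 and a replicate block (limma adjusted p = 0.0483, 0.0430 and 0.0381), and with DESeq2 (adjusted p = 0.00726). The LRP5 interaction was 1.06 without trametinib replicate 1 and 0.60 without replicate 2.

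**Figure D4:**
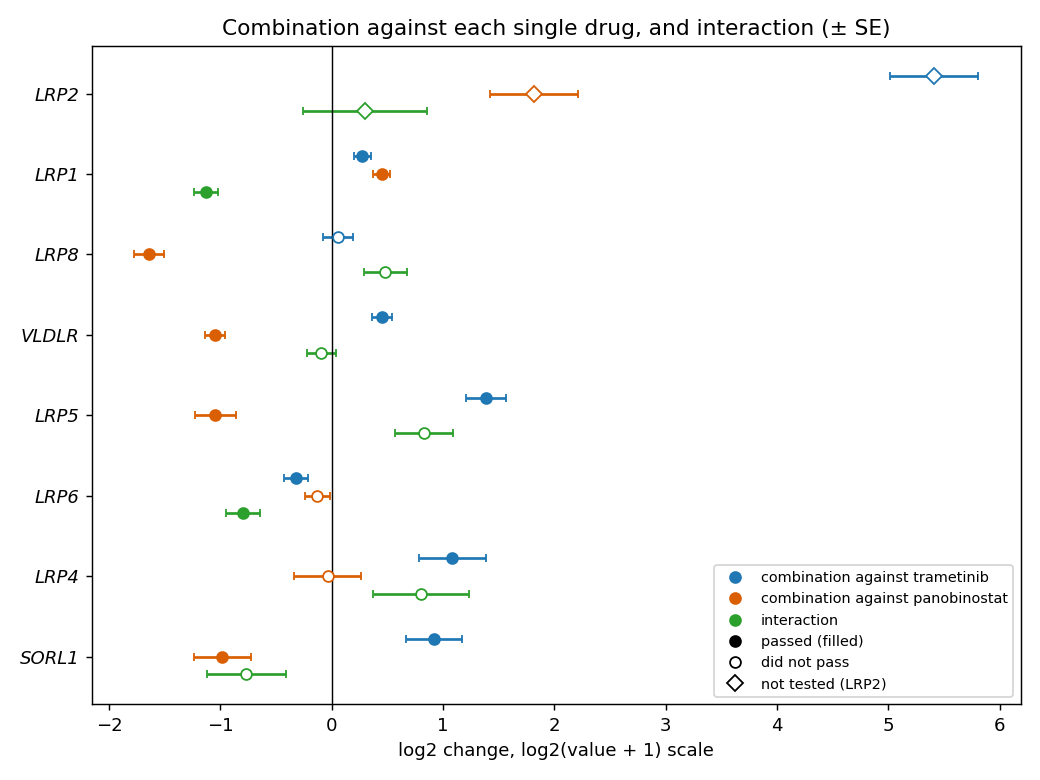
Log2 change (x axis, log2(value + 1) scale) of each receptor (y axis) from trametinib to the combination, from panobinostat to the combination, and the interaction; bars are SE, filled circles passed, open circles did not, and open diamonds were not tested. LRP5, LRP8, VLDLR and SORL1 lie between -1.64 and -0.98 from panobinostat to the combination, and LRP2 lies at 1.82.

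Levels were compared between genes only per kb of the longest coding transcript in GENCODE release 29, a length of 15808 bases for LRP2. On that scale the members summed to 607 and 606 in vehicle, 656 and 625 under trametinib, 978 and 917 under panobinostat and 894 and 840 under both drugs. VLDLR (124), LRP6 (123), LRP8 (119), LRP5 (103) and LRP1 (99.3) were close to each other in vehicle, and LRP2 was lowest at 0.894. LRP1 ranked 5 of 8 in vehicle and 1 of 8 in the other 3 groups, at 297, 263 and 359 per kb. LRP2 ranked 8 with trametinib (2.89), 7 under panobinostat (32.3) and 3 under both (114), where it made up 13.9% and 12.5% of the summed members against 0.113% and 0.182% in vehicle.

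**Figure D5:**
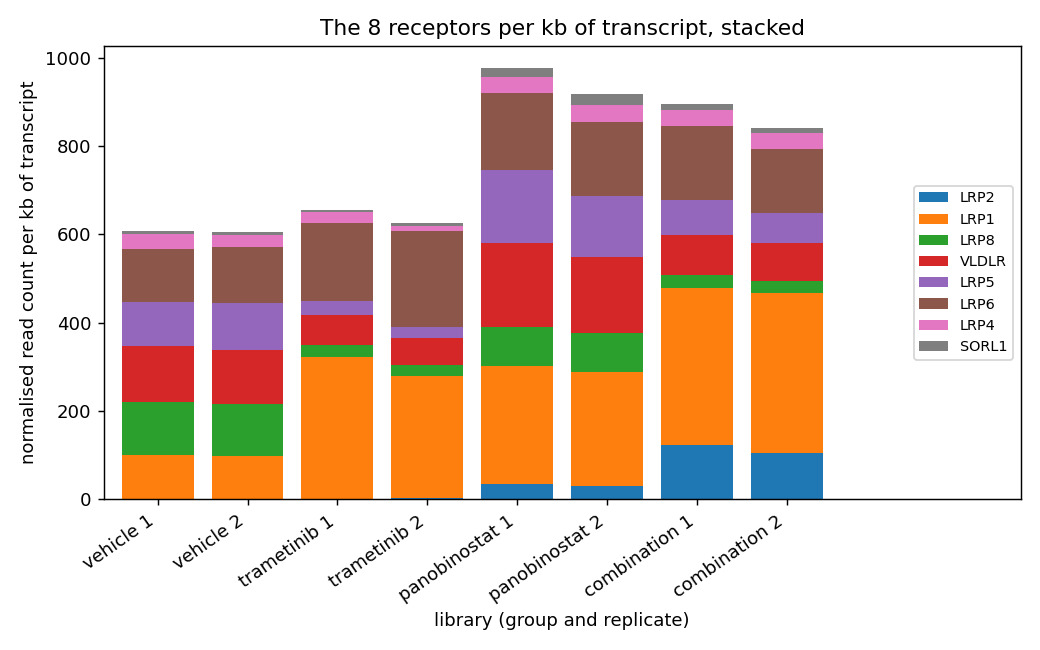
Normalised read count per kb of transcript (y axis) in each library (x axis), stacked over the 8 receptors. The LRP2 segment is at most 4.13 per kb in the vehicle and trametinib libraries and 124 and 105 per kb in the combination, and the LRP8 and LRP5 segments are smaller with trametinib than in vehicle.

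The gene lists that follow were called at shares to be read against those of all genes: 51.0% under trametinib, 30.5% under panobinostat and 50% under both drugs. Of 7 other tested receptors of the family, 2 rose and 3 fell with trametinib (median -0.36) and 0 rose and 2 fell with panobinostat (-0.05). In the combination 1 rose and 3 fell (-0.26). So 5, 2 and 4 of 7 were called, against 51.0%, 30.5% and 50% of all genes. LRP10 was at 690 and 673 in vehicle, 1058 and 1304 under trametinib, 861 and 720 under panobinostat and 1137 and 1194 under both drugs. It rose with trametinib (0.78 ± 0.12, limma adjusted p = 5.95e-04) and in the combination (0.77 ± 0.12, limma adjusted p = 6.58e-04). Of 3 tested VPS10 relatives of SORL1, 2 rose with trametinib, 0 were called with panobinostat and 1 rose in the combination. Among them the sorting receptor SORT1 was at 0.57 ± 0.065, 0.04 ± 0.065 and 0.42 ± 0.065 against vehicle, of which the second did not pass.

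Of 11 tested coreceptors, adaptors and chaperones of LRP2, 5 rose and 3 fell with trametinib (median 0.34), 3 rose and 0 fell with panobinostat (0.29), and 4 rose and 2 fell in the combination (0.20), so 8, 3 and 6 of 11 were called against 51.0%, 30.5% and 50% of all genes. DAB2, an endocytic adaptor that binds the LRP2 tail, was at 2100 and 1959 in vehicle, 1201 and 1111 under trametinib, 2788 and 2858 under panobinostat and 1723 and 1824 under both drugs. It fell with trametinib (-0.81 ± 0.075, limma adjusted p = 1.92e-05) and rose with panobinostat (0.48 ± 0.075, limma adjusted p = 0.00149). CUBN (cubilin), the coreceptor of LRP2, was looked at after its values were seen: it was at 66.8 and 73.6, 310 and 188, 86.7 and 108, and 206 and 166 in the same order. CUBN rose with trametinib (1.77 ± 0.29, limma adjusted p = 8.14e-04) and in the combination (1.39 ± 0.29, limma adjusted p = 0.00338), and did not pass with panobinostat (0.46 ± 0.29, limma adjusted p = 0.281).

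Of 15 tested ligands of the family, 7 rose and 3 fell with trametinib (median 0.12), 10 rose and 0 fell with panobinostat (0.54), and 8 rose and 1 fell in the combination (0.79). Of all genes, 23.7% rose and 27.4% fell under trametinib, 15.0% and 15.6% under panobinostat and 24.5% and 25.5% under both drugs. CLU (clusterin), a ligand of LRP2, LRP8 and VLDLR, was at 308 and 314 in vehicle, 817 and 950 under trametinib, 860 and 967 under panobinostat and 1935 and 1728 under both drugs. Both combination libraries lay above the others, and its change there was 2.55 ± 0.11 (limma adjusted p = 2.31e-07). A2M, a protease inhibitor cleared through LRP1, rose with panobinostat (1.21 ± 0.052) and in the combination (1.44 ± 0.052; limma adjusted p = 3.00e-06 and 1.01e-07). A2M was also called higher under trametinib, at 4066 and 4014 against 2909 and 3008 in vehicle (0.45 ± 0.052, limma adjusted p = 7.92e-05). SERPINE2, another LRP1 ligand, went from 1248 and 1206 in vehicle to 345 and 393 under trametinib, 2990 and 2939 under panobinostat and 574 and 593 under both drugs.

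Of 29 tested components of the LRP5 and LRP6 receptor complex, 7 rose and 7 fell with trametinib (median -0.11), 7 rose and 2 fell with panobinostat (0.13), and 8 rose and 5 fell in the combination (0.06), so 14, 9 and 13 of 29 were called, near the 51.0%, 30.5% and 50% of all genes. CTNNB1, the transcriptional effector beta-catenin, was at 7922 and 8272 in vehicle, 3140 and 2931 under trametinib, 10113 and 9578 under panobinostat and 3574 and 3479 under both drugs. As for LRP8, its libraries with trametinib lay apart from those without, with -1.42 ± 0.059 and -1.20 ± 0.059 for trametinib and the combination against vehicle (limma adjusted p = 1.37e-07 and 4.61e-07). CAPRIN2, which binds LRP6, rose in all 3 (1.23 ± 0.12, 0.97 ± 0.12 and 1.51 ± 0.12). Of 7 canonical Wnt target genes, 2 rose and 2 fell with trametinib (median 0.35), 3 rose and 0 fell with panobinostat (0.50), and 4 rose and 1 fell in the combination (0.88), so 4, 3 and 5 of 7 were called against the same shares. LEF1, a transcription factor of the pathway, changed by 1.37 ± 0.13 with trametinib and 1.16 ± 0.13 in the combination, while TNFRSF19 changed by -2.33 ± 0.21 and 1.26 ± 0.21. With panobinostat alone TNFRSF19 was at 358 and 443, near the 393 and 403 of the combination, against 151 and 181 in vehicle. LEF1 was at 403 and 442 with panobinostat, against 277 and 298 in vehicle.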

How the data were processed

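The deposited table held 1 column per library, and its values are a normalised signal (normalised read counts) made by the authors. TopHat2 (2.0.13), Cufflinks (2.2.1) and DESeq2 are named in the submitters' processing notes, while the annotation and strand setting are not given in the sources used here. Values were whole multiples of a step per library (100% within 1e-06), so they were counts divided by a size factor, and 1 read was worth 0.602 to 1.52. The unit check could settle this for 5 columns only, as the other steps lie near 1. Genes with a mean of at least 10 were tested with limma 3.58.1 under R 4.3.3, with an intensity trend, on log2(value + 1), which understates changes of low genes, with 4 residual and 5.32 prior degrees of freedom and no block. edgeR 4.0.16, DESeq2 1.42.0 and other settings were run as alternatives. Fits were tested on simulated data. The members and the 10 gene lists were chosen with earlier results of these data known. Named genes were the members, the 5 nearest to LRP2 and up to 3 called genes per list and comparison with the smallest adjusted p. Figures were drawn with matplotlib 3.10.9. Some genes of these lists are not reported here. LRP2 had been planned for a test in trametinib against vehicle and in combination against panobinostat; these share libraries with its choice and are given without a test.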

Additional observations from a re-analysis of the deposited data

Results flagged for a closer look

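For LRP1 and LRP6 the change with panobinostat differed between cells without and with trametinib, by the test of the difference itself. Panobinostat and any difference in handling between libraries with and without a named build cannot be told apart in it. LRP1 and LRP6 were 2 of the 7 members other than LRP2 (28.6%), where 19.3% of all tested genes were called. For LRP1 panobinostat added 1.40 to vehicle and 0.27 to trametinib on the log2 scale, a difference of -1.13 (limma adjusted p = 1.55e-04). For LRP6 it added 0.48 to vehicle and -0.32 to trametinib. The latter was -0.17 without trametinib replicate 2, and did not pass in 5 of the 9 alternatives other than leaving out 1 library. The LRP6 difference was -0.80 (limma adjusted p = 0.00666). Both calls held under all 16 alternatives run, with the LRP1 difference between -1.24 and -1.01 and the LRP6 difference between -0.95 and -0.64.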

How the results depend on the processing

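Alternatives were pseudocounts of 0.5 and 5, no filter and a mean of at least 50, quantile normalization, edgeR with TMM, DESeq2, only the groups compared, a replicate block, and leaving out each library. Over 707 results of the members other than LRP2, 623 kept direction and call, 63 lost the call, 16 gained it and 5 changed sign. Without 1 library each, members called other than LRP2 ranged from 3 to 6 (panobinostat), 3 to 6 (combination), 2 to 6 (combination against trametinib) and 2 to 5 (interaction); fitting only the groups compared gave 1 for combination against trametinib. LRP2 ranged from 0.88 to 2.17 with trametinib and from 1.70 to 1.94 for combination against panobinostat. Signs changed for LRP8, combination against trametinib (-0.040 by quantile normalization, and from -0.062 without combination replicate 1 to 0.18 without combination replicate 2), LRP4, combination against panobinostat (0.00080 by quantile normalization, and from -0.10 to 0.029 without panobinostat replicate 1 or 2) and the LRP2 interaction (-0.35 without trametinib replicate 1 to 0.95 without trametinib replicate 2). In trametinib against vehicle they changed for DCX (-0.34 without trametinib replicate 1 to 0.66 without replicate 2) and SYN1 (-1.69 to 3.44, same libraries); BIK was at 0 without trametinib replicate 1 and 4.40 without replicate 2. The cause was not tested. Quantile normalization moved the median log2 change of all genes from -0.07 to 0.06 with trametinib and from 0.08 to -0.05 in the interaction. Against vehicle, edgeR called 6783 (trametinib), 4273 (panobinostat) and 6737 (combination) genes. With only the groups compared, 55.1% of genes were called with panobinostat, 16.9% in combination against trametinib and 40.1% in combination against panobinostat. Without 1 library each, 18.7% to 55.4% of genes were called in combination against trametinib, 12.7% to 43.1% in combination against panobinostat and 9.82% to 46.7% in the interaction. Replicate numbers did not pair the libraries (correlations of deviations from -0.02 to 0.02). With the replicate block, SORL1 in combination against vehicle (0.71, limma adjusted p = 0.0594) and LRP6 in combination against trametinib (-0.32, limma adjusted p = 0.0611) lost the call and LRP5 gained it in combination against vehicle (-0.49) and in the interaction (0.83). Values of LRP2 in vehicle rest on 18 and 22 reads, which limits the precision of its folds.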

Other observations

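Genes that cut or degrade the receptors were measured beside them. Of 11 tested, 4 rose and 0 fell with trametinib, 1 rose and 2 fell with panobinostat, and 5 rose and 2 fell in the combination. So 4, 3 and 7 of 11 were called, where 51.0%, 30.5% and 50% of all tested genes were. The protease MMP14 changed by 1.29 ± 0.068 with trametinib and -0.63 ± 0.068 with panobinostat (log2 change ± SE; limma adjusted p = 5.43e-07 and 1.83e-04), and by 0.43 ± 0.068 in the combination. MYLIP, the ubiquitin ligase that marks VLDLR and LRP8 for degradation, was at 424 and 447 in vehicle and 652 and 650 in the combination (0.58 ± 0.11, limma adjusted p = 0.00152). With panobinostat alone it was at 665 and 614 (0.55 ± 0.11, limma adjusted p = 0.00427), and the combination was not separated from that (0.03 ± 0.11, limma adjusted p = 0.900). With trametinib it was at 517 and 544 and did not pass (0.28 ± 0.11, limma adjusted p = 0.0504).

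Of 15 transcription factors known to regulate family members, 9 rose and 3 fell with trametinib, 1 rose and 5 fell with panobinostat, and 6 rose and 2 fell in the combination. So 12, 6 and 8 of 15 were called, against the same shares of all genes, which also stand behind the next lists. EPAS1 changed by 1.58 ± 0.094 with trametinib and 0.90 ± 0.094 in the combination, and SREBF2, a sterol-regulated factor, by 0.83 ± 0.068 with trametinib. Of 8 reelin pathway genes, rises and falls were 4 and 2, 2 and 1, and 2 and 2 in the same order; PIK3R1 rose in all 3 (0.51 ± 0.079, 0.75 ± 0.079 and 1.48 ± 0.079). RELN, named after its values were seen, was at 10.5 or below in all 8 libraries. Of 2 tested agrin pathway genes, 2, 1 and 1 rose, and AGRN, which encodes the LRP4 ligand agrin, changed by 0.51 ± 0.064, 0.35 ± 0.064 and 0.79 ± 0.064.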
